A study of Homo sapiens with 6 samples.

Results

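Paxillin is a docking protein of focal adhesions, the sites where a cell grips the matrix through integrins. Its leucine-rich LD motifs and LIM domains hold kinases, adaptors and regulators of small GTPases, and cells remodel this assembly when they spread or migrate. The genes described here are 10 rows of the deposited table, chosen by gene name out of 58302: PXN itself, the antisense transcript PXN-AS1, the paxillin relatives TGFB1I1 and LPXN, the kinases PTK2 and PTK2B, the ArfGAP scaffolds GIT1 and GIT2, the parvin PARVA and the scaffold BCAR1.

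RNA was sequenced from MHCC97H, an established human hepatocellular carcinoma line, as a DDX17 knockout line (DDX17_KO) and as a non-target control line. Both lines were made with CRISPR/Cas9 and grown in DMEM with serum, with 3 libraries each. The title of the series puts an isoform of PXN-AS1 made by DDX17-regulated splicing at the centre of the study. The table gives 1 level per gene in FPKM, which is fragments scaled for transcript length and library size, so a change of isoform and a change of total level cannot be told apart in it. No label says whether a line was 1 clone or whether the libraries came from separate cultures, so the p-values rest on spread among these libraries only, and that spread may be technical.

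PXN and PXN-AS1 lie on opposite strands of chromosome 12 and overlap at their 3′ ends. In hg38, PXN (ENSG00000089159, minus strand) runs from 120210439 to 120265771 and PXN-AS1 (ENSG00000255857, plus strand) from 120201291 to 120213138. The genes share the 2700 bases from 120210439 to 120213138. Of the 2380 exon bases of PXN-AS1 in GENCODE release 29, 918 (38.6%) are also exon bases of PXN, and these make up 12.3% of the exon bases of PXN. The 6 annotated PXN-AS1 transcripts differ in where they end. PXN-AS1-203, with a last exon of 583 bases starting at 120210930, has 70.5% of its bases inside PXN exons. PXN-AS1-202 ends at 120210107, before PXN begins, and has 0 such bases. The share was 11.5% in PXN-AS1-205, 24.1% in PXN-AS1-204, 32.7% in PXN-AS1-201 and 57.3% in PXN-AS1-206. No source used here says that fragments were assigned by strand, so at 918 bases the fragments of the pair cannot be separated with certainty.

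**Figure D1:**
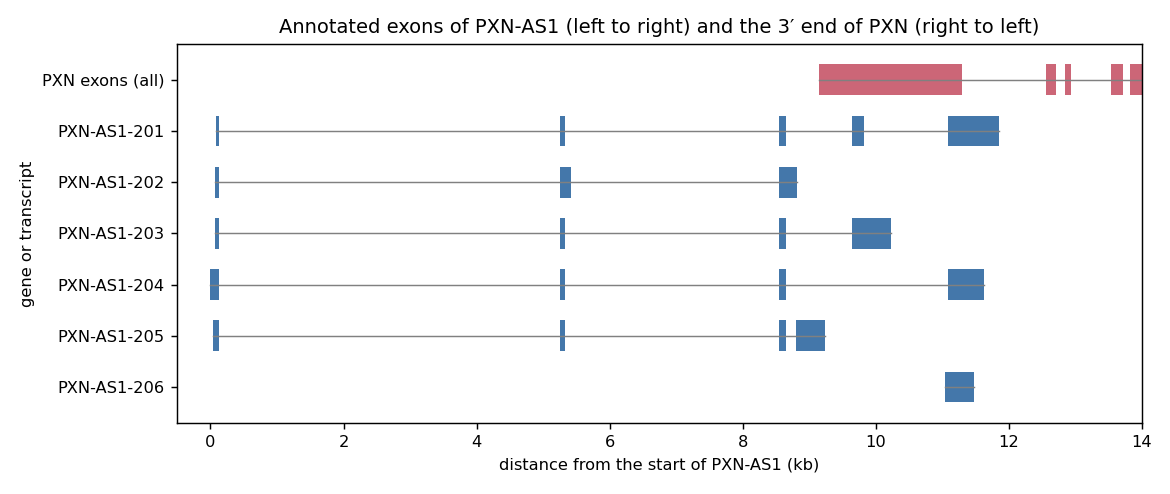
Annotated exons in GENCODE release 29, by distance in kb from the start of PXN-AS1; PXN exons of all transcripts are red on 1 line and each of the 6 PXN-AS1 transcripts is blue on its own line. PXN-AS1-202 ends before the first red block, while the last exon of PXN-AS1-203 lies inside it.

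The starts of the genes are far apart, and the bases before each are shown because they place PXN-AS1 beside another gene. PXN-AS1 starts 55 bases from the ribosomal protein gene RPLP0, which lies on the minus strand and runs away from it. Sequences are from RefSeq (GRCh38.p14), 5′ to 3′ on the strand of the named gene. Capitals mark CCAAT or its reverse complement ATTGG, and GGGCGG or its reverse complement CCGCCC, which are letter matches only.
PXN, chr12:120265772-120265980, minus strand: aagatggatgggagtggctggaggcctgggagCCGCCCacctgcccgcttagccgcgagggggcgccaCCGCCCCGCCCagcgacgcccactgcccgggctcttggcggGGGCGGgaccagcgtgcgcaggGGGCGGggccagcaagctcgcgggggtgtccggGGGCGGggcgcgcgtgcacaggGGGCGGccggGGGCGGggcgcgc
PXN-AS1, chr12:120201236-120201290, plus strand: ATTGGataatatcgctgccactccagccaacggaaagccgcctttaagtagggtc
The 209 bases before PXN are 81.3% G and C and hold 8 matches to GGGCGG on either strand, where neighbouring matches may overlap. Of 35116 RefSeq promoters, 40.7% hold at least 1 such match in the same length before the start. The 55 bases between RPLP0 and PXN-AS1 are 50.9% G and C, against a promoter median of 60.0% in that length. They hold 1 match to CCAAT, against 8.3% of promoters with a match in that length.

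Library depth, estimated from the steps between low FPKM values, ran from 12340000 to 14590000 fragments in controls and from 5350000 to 10600000 in DDX17_KO, where replicate 2 was the shallowest. DDX17 was lower in every DDX17_KO library, at 22.4, 7.64 and 19.1 FPKM against 45.7, 41.4 and 43.9 FPKM in controls. Its log2 fold change was -1.48 with a limma adjusted p of 0.282, so the targeted gene itself did not pass the threshold of 0.05 with all 6 libraries. It passed when DDX17_KO replicate 2 was left out (-1.04, limma adjusted p = 0.0334) and when both libraries numbered 2 were (-1.08, adjusted p = 0.0349). The libraries numbered 2 stood apart in both groups. Across genes, Spearman's rho between a library's deviation from its group mean and transcript GC content was 0.59 in the control numbered 2 and 0.534 in its DDX17_KO counterpart, and ranged from -0.539 to -0.323 in the other 4 libraries. Of the epithelial markers, KRT8 and KRT18 stood above 1 FPKM and CDH1 and EPCAM did not, and the summed levels of the 4 genes were 283 to 338 FPKM in the non-target libraries and 255 to 408 FPKM in DDX17_KO. The 6 hepatocyte markers, ALB and AFP among them, summed to at most 0.774 FPKM in the non-target libraries and 0.0372 FPKM in DDX17_KO, so the markers that define liver cells were at or near 0. The 5 erythroid markers summed to 54 to 69.6 FPKM in the non-target libraries and 0.0211 to 0.673 FPKM in DDX17_KO, through the globin genes HBB, HBA1 and HBA2. In bulk samples, fewer cells of a type and less RNA per cell cannot be told apart. The part of that difference in the results below was not tested.

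Of the 8 genes that could be tested, 0 passed the threshold. The test was limma on log2(FPKM + 1) across the 15620 genes averaging 0.5 FPKM or more, with Benjamini-Hochberg adjustment, and 8 of the 10 entered it. TGFB1I1 and LPXN lay below that mean. Among the 8, 4 had a log2 fold change below 0 and 4 above 0, where 52.5% of all genes tested were below 0. The median of the 8 was -0.12, against -0.03 over all genes tested. The limma adjusted p ran from 0.386 to 0.914, and 0 of the 8 had an unadjusted p under 0.05. Voom on approximate fragments (FPKM times mean transcript length times estimated depth) also gave 0 at either level. After adjustment the background was as sparse: 0.0384% of the 15620 genes were called, all 6 of them lower in DDX17_KO. Before adjustment it was not, as 13.5% of the 15620 genes had a limma p under 0.05. The confidence intervals were wide, so these results do not show that the genes were unaffected.

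**Figure D2:**
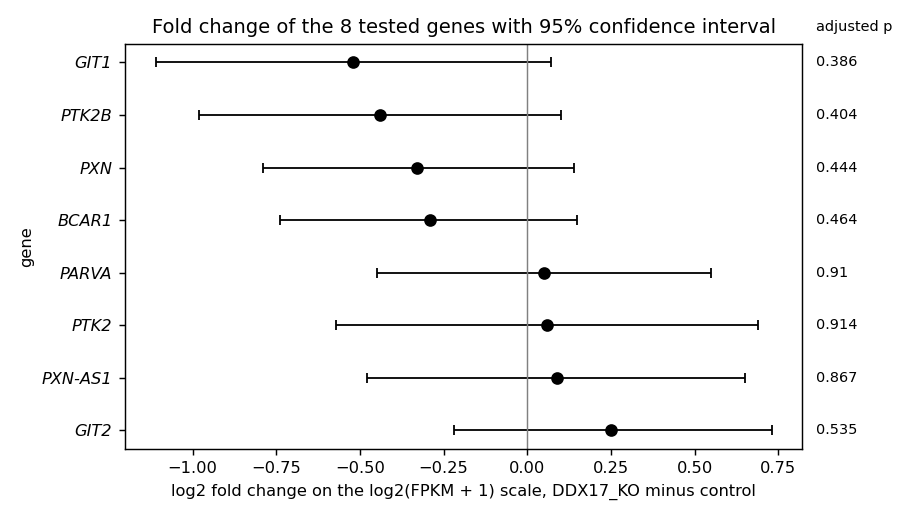
Log2 fold change on the log2(FPKM + 1) scale, DDX17_KO minus control, for the 8 tested genes; points are estimates and bars 95% confidence intervals from limma, with adjusted p at the right. All 8 intervals cross 0, from GIT1 at -0.52 to GIT2 at 0.25.

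PXN had the highest mean level of the 10 genes in both groups. It stood at 13.9, 12.1 and 14.1 FPKM across the non-target replicates 1, 2 and 3. In DDX17_KO replicates 1, 2 and 3 it stood at 8.71, 13.1 and 9.9 FPKM. DDX17_KO replicates 1 and 3 were below every control, while replicate 2 lay within the control range, so the groups overlapped. The log2 fold change was -0.33 (95% confidence interval -0.79 to 0.14) with a limma adjusted p of 0.444. Between same-numbered libraries it was -0.61, 0.11 and -0.47 for replicates 1, 2 and 3. Leaving out DDX17_KO replicate 2 gave -0.48 (limma adjusted p = 0.0891), and leaving out both libraries numbered 2 gave -0.54 (adjusted p = 0.0525). Adjusting each of the 6 libraries for transcript GC content and length gave -0.05 with a limma adjusted p of 0.899.

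PXN-AS1, a long noncoding RNA, had overlapping values in the groups and a wide interval. Its control values were 1.68, 2.83 and 1.74 FPKM for replicates 1, 2 and 3. The DDX17_KO values were 1.59, 3.24 and 2.05 FPKM. In both groups replicate 2 was highest, at 1.66 times the mean of the other controls and 1.78 times the mean of the other DDX17_KO libraries, and the groups overlapped. The log2 fold change was 0.09 (95% confidence interval -0.48 to 0.65), the limma adjusted p 0.867 and the exact permutation p 0.7. Its sign turned when control replicate 1 was left out (-0.01) and when DDX17_KO replicate 2 was (-0.11). With the correction for GC content and length it was 0.29 with a limma adjusted p of 0.352. Depth may limit this gene. At its mean annotated transcript length of 752 bases, 3 fragments in the shallowest library would make about 0.746 FPKM, counting error alone considered. Whether that length lies behind the gene value is not known.

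Relative to PXN, PXN-AS1 was higher in DDX17_KO than in the control of the same number in 3 of 3 pairs, a pairing that no label states. The ratio of FPKM values was 12.1%, 23.3% and 12.3% across the non-target replicates 1, 2 and 3 and 18.2%, 24.7% and 20.7% in DDX17_KO. Control replicate 2 lay inside the DDX17_KO range, and the other controls lay below it. The group means were 15.9% ± 6.42 in controls and 21.2% ± 3.29 in DDX17_KO (SD, n = 3 each). On the log2 scale the ratio differed by 0.48 (95% confidence interval -0.46 to 1.41), with a two-sided exact permutation p of 0.3 over 20 arrangements and 0.3 after Benjamini-Hochberg adjustment over 5 ratios. The smallest p this design allows is 0.1. Without control replicate 2 the difference was 0.79, and without control replicate 1 it was 0.31. Within libraries 1 and 3 alone it was 0.67, with groups of 2 that cannot reach a p below 0.33 by the exact permutation test.

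**Figure D3:**
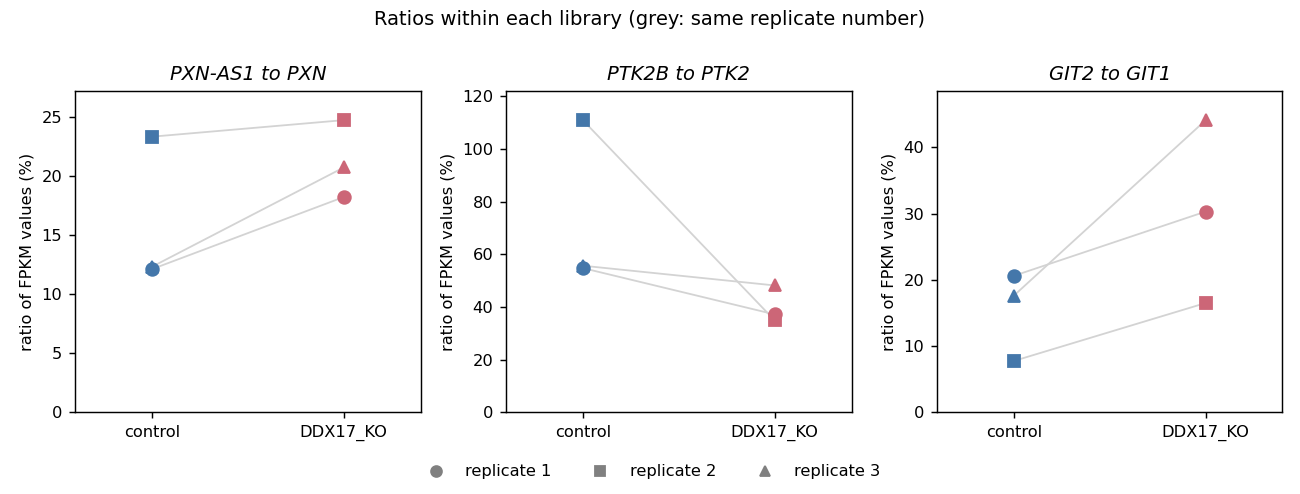
Ratio of FPKM values within each library, in percent, for PXN-AS1 to PXN, PTK2B to PTK2 and GIT2 to GIT1; symbols mark replicate numbers and grey lines join the same number. PXN-AS1 to PXN and GIT2 to GIT1 are higher in DDX17_KO along all 3 lines, and PTK2B to PTK2 is lower along all 3, with groups that overlap in the first and the last.

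The genes beside the pair gave no shared direction. RPLP0, a subunit gene of the ribosome stalk that starts 55 bases from PXN-AS1, stood at 86.7, 97.5 and 93.4 FPKM in the non-target libraries and 68.7, 114 and 53.7 FPKM in DDX17_KO. Like PXN-AS1, RPLP0 was highest in replicate 2 of each group, and like PXN it lay below every control in DDX17_KO replicates 1 and 3. GCN1, which encodes an activator of the kinase GCN2, had 71.4 ± 11.2 FPKM in the non-target libraries and 51.4 ± 16.7 FPKM in the knockout (SD, n = 3 each). The other tested neighbours by the rule were MIR4498, the pseudogene NME2P1 and the U4 small nuclear RNA genes RNU4-2 and RNU4-1. Their fragments are few or may be shared with near-identical copies, and their values are uncertain. The limma adjusted p of all 6 neighbours ran from 0.399 for GCN1 to 0.821 for RNU4-1, with log2 fold changes from -0.50 to 0.56.

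Paxillin relatives were expressed at a small fraction of PXN. TGFB1I1 encodes Hic-5, a LIM protein of focal adhesions found in smooth muscle and fibroblasts, and LPXN encodes leupaxin, found mostly in blood cells. TGFB1I1 (ENSG00000140682, chromosome 16, 31471585 to 31477960) had values of 0.392, 0.375 and 0.348 FPKM in the non-target libraries and 0.462, 0.344 and 0.551 FPKM in DDX17_KO. LPXN (ENSG00000110031, chromosome 11, 58526871 to 58578220) had values of 0.385, 0.522 and 0.365 FPKM in the non-target libraries and 0.394, 0.522 and 0.306 FPKM in DDX17_KO. Both overlapped between the groups. The exact permutation p was 0.4 for TGFB1I1 and 0.9 for LPXN. If the mean transcript length applied, 0.395 FPKM for TGFB1I1 and 0.347 FPKM for LPXN would be only 3 fragments in the shallowest library. The length behind these gene values is not known, so how far depth limits such differences is uncertain. PXN made up 93.1% to 95.2% of the summed FPKM of the 3 relatives in controls and 91% to 93.8% in DDX17_KO. The ratio of TGFB1I1 to PXN was 2.82%, 3.09% and 2.47% in controls and 5.3%, 2.62% and 5.57% in DDX17_KO. DDX17_KO replicate 2 lay in the control range and the other DDX17_KO libraries above it, with an exact permutation p of 0.3. The ratio of LPXN to PXN was 2.78%, 4.31% and 2.59% in controls and 4.53%, 3.98% and 3.1% in DDX17_KO, with overlap and the same exact permutation p of 0.3. The 7 smooth muscle and fibroblast markers summed to 16.3 to 20.7 FPKM in the non-target libraries and 8.95 to 15.9 FPKM in DDX17_KO, mostly through COL1A1, with MYH11 at 0 in all libraries. COL1A2 had means of 0.00327 and 0.00491 FPKM in controls and DDX17_KO, and CNN1 of 0.00402 and 0.00926 FPKM. ACTA2 was higher in DDX17_KO by mean (1.97 and 2.5 FPKM), and DES (0.863 and 0.507 FPKM) and PDGFRB (1.53 and 0.832 FPKM) were lower. The list thus had no common direction, and its sum is mainly that of 1 gene. The 8 leukocyte markers summed to at most 0.157 FPKM in any library, and CD3E and SPI1 were at 0.

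**Figure D4:**
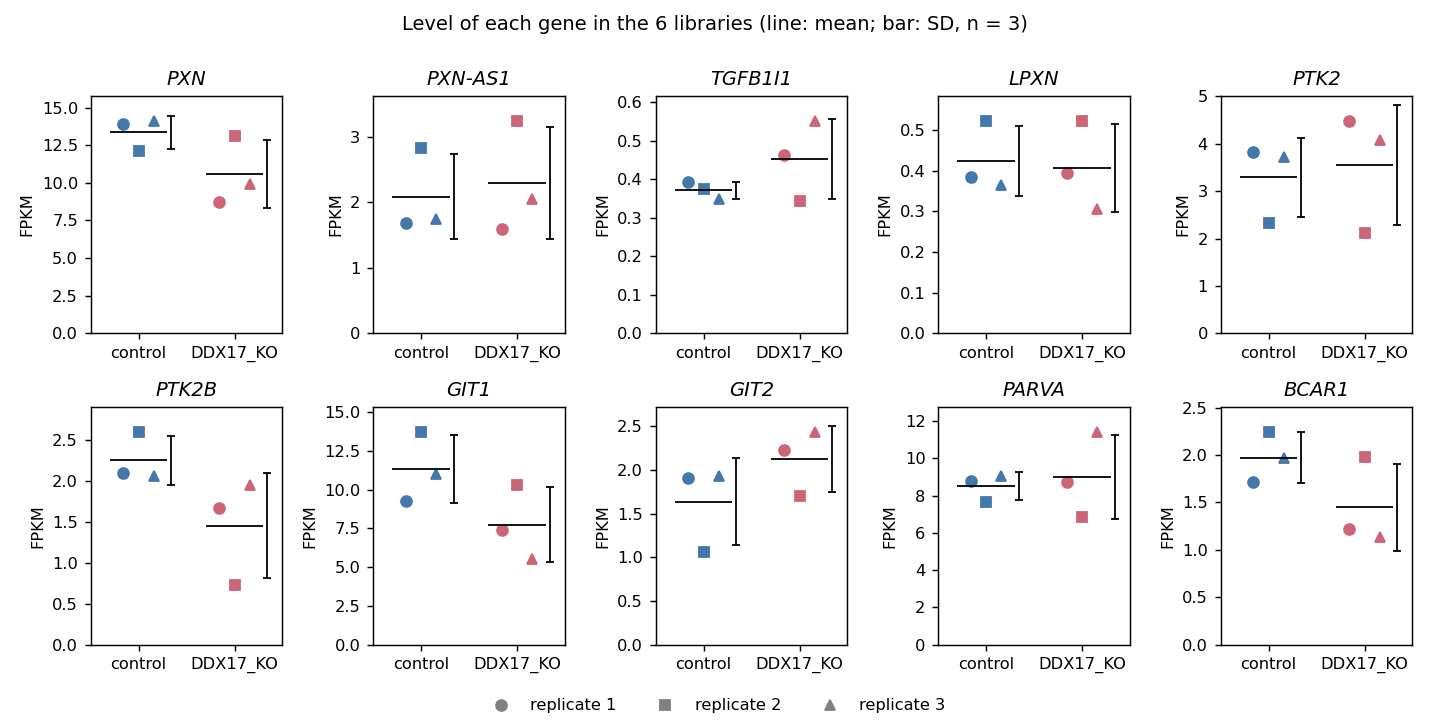
FPKM of each of the 10 genes in the 6 libraries, control at left and DDX17_KO at right; symbols mark replicate numbers, horizontal lines group means and bars the SD (n = 3). PTK2B is the gene whose groups do not overlap, and the squares of replicate 2 lie at an edge of the group in most panels.

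Of the paxillin-binding kinases, PTK2B had every knockout value below every control value and PTK2 did not. PTK2 encodes focal adhesion kinase, which binds the LD motifs of paxillin, and PTK2B encodes its relative PYK2, a calcium-responsive kinase. PTK2B (ENSG00000120899, chromosome 8, 27311482 to 27459391) had values of 2.1, 2.6 and 2.07 FPKM across the non-target replicates 1, 2 and 3. The DDX17_KO values of PTK2B were 1.67, 0.735 and 1.96 FPKM. The gap between the groups was narrow, from 1.96 FPKM in DDX17_KO replicate 3 to 2.07 FPKM in control replicate 3, and DDX17_KO replicate 2 was far below the rest. In that library, the shallowest, 3 fragments would make 0.36 FPKM if the mean transcript length of PTK2B applied. The length behind the gene value is not known, so the number of fragments behind its 0.735 FPKM is uncertain. Of all genes tested, 12.6% were lower in DDX17_KO with groups that did not overlap and 20.7% did not overlap in either direction, so 1 such gene among 8 is near the background. For PTK2B the log2 fold change was -0.44 (95% confidence interval -0.98 to 0.10), and the limma adjusted p was 0.404. It was -0.21 when DDX17_KO replicate 2 was left out, and with the correction for GC content and length -0.18.

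PTK2 (ENSG00000169398, chromosome 8, 140657900 to 141002216) had values of 3.83, 2.33 and 3.72 FPKM in the non-target libraries and 4.48, 2.11 and 4.07 FPKM in DDX17_KO. Replicate 2 was lowest in each group, and the groups overlapped. The log2 fold change was 0.06 (95% confidence interval -0.57 to 0.69), with a limma adjusted p of 0.914. PTK2B stood at 54.8%, 111% and 55.7% of PTK2 in controls and at 37.2%, 34.9% and 48.2% in DDX17_KO, with no overlap. On the log2 scale this ratio differed by -0.81 (95% confidence interval -1.83 to 0.20), with an exact permutation p of 0.1, the smallest possible, and 0.3 after adjustment over the 5 ratios. With single libraries left out the difference ran from -0.99 without control replicate 1 to -0.48 without control replicate 2, and without both libraries numbered 2 it was -0.38.

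GIT1 and GIT2 encode ArfGAP scaffolds that bring PIX and PAK proteins to paxillin. GIT1 (ENSG00000108262, chromosome 17, 29573469 to 29594054) had values of 9.29, 13.7 and 11 FPKM across the non-target replicates 1, 2 and 3 and of 7.36, 10.3 and 5.51 FPKM in DDX17_KO. Each DDX17_KO library was below the control of the same number, and replicate 2 was highest in each group. DDX17_KO replicate 2 exceeded control replicate 1, so the groups overlapped. The log2 fold change of -0.52 (95% confidence interval -1.11 to 0.07) was the furthest from 0 among the 8 tested genes, with a limma adjusted p of 0.386. It was -0.73 with an adjusted p of 0.0758 without DDX17_KO replicate 2, -0.33 without DDX17_KO replicate 3, and -0.19 with the GC content and length correction, all by limma.

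GIT2 (ENSG00000139436, chromosome 12, 109929792 to 109996389) lay on the other side of 0. It stood at 1.91, 1.06 and 1.93 FPKM in the non-target libraries and 2.23, 1.7 and 2.43 FPKM in DDX17_KO, higher than the same-numbered control in 3 of 3 pairs. DDX17_KO replicate 2 lay within the control range. The log2 fold change was 0.25 (95% confidence interval -0.22 to 0.73), with a limma adjusted p of 0.535, and 0.09 without control replicate 2. The ratio of GIT2 to GIT1 was 20.6%, 7.75% and 17.6% in controls and 30.3%, 16.5% and 44.1% in DDX17_KO. On the log2 scale it differed by 0.99 (95% confidence interval -0.68 to 2.66), with an exact permutation p of 0.3. With single libraries left out the difference ran from 0.56 without control replicate 2 to 1.37 without DDX17_KO replicate 2, where the exact permutation p was 0.1, the smallest possible. Without both libraries numbered 2 it was 0.94.

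PARVA and BCAR1 stand for the integrin-linked and the Cas branches of the adhesion. PARVA (ENSG00000197702, chromosome 11, 12377185 to 12530801) encodes alpha-parvin, which joins the kinase ILK to actin. It stood at 8.78, 7.65 and 9.07 FPKM in the non-target libraries and 8.71, 6.87 and 11.4 FPKM in DDX17_KO, and its log2 fold change was 0.05 (95% confidence interval -0.45 to 0.55; limma adjusted p = 0.91). Its lowest and its highest value were both in DDX17_KO. BCAR1 (ENSG00000050820, chromosome 16, 75228187 to 75268053) encodes p130Cas, a scaffold phosphorylated by focal adhesion kinase and SRC. BCAR1 stood at 1.71, 2.24 and 1.97 FPKM in the non-target libraries and 1.22, 1.98 and 1.14 FPKM in DDX17_KO. Its DDX17_KO replicates 1 and 3 were below every control and replicate 2 was above control replicate 1. For BCAR1 the log2 fold change was -0.29 (95% confidence interval -0.74 to 0.15) with a limma adjusted p of 0.464, and 0.02 with the GC content and length correction.

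Between same-numbered libraries, 3 of the 8 tested genes (PTK2B, GIT1 and BCAR1) were lower in DDX17_KO in all 3 pairs and GIT2 was higher in all 3. Over all genes tested, 27.5% were lower and 26.2% higher in all 3 pairs. With the replicate number as a block, 0 of the 8 passed the threshold, and GIT1 had an unadjusted p under 0.05 (limma adjusted p = 0.119), as did 28.6% of all genes in that fit. Without DDX17_KO replicate 2, when limma called 3.66% of all genes (1.95% higher and 1.72% lower), 0 of the 8 passed. PXN, GIT1 and BCAR1 then had an unadjusted p under 0.05, as did 35.8% of all genes, so 3 of 8 is near the background. Without both libraries numbered 2 the share of all genes called was 8.81% (5.51% higher and 3.3% lower) and the count among the 8 was again 0.

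Ordered by level per length, the genes fell into 3 tiers that both groups shared. PXN, GIT1 and PARVA had means of 13.4, 11.3 and 8.5 FPKM in the non-target libraries and 10.6, 7.73 and 8.99 FPKM in DDX17_KO. In controls GIT1 and PARVA did not overlap, and in DDX17_KO these neighbours did. PTK2, PTK2B, PXN-AS1, BCAR1 and GIT2 followed, with means from 3.29 down to 1.64 FPKM in the non-target libraries and from 3.56 down to 1.45 FPKM in DDX17_KO. Each overlapped its neighbour in the order of its own group. LPXN and TGFB1I1 came last, overlapping each other, at 0.424 and 0.371 FPKM in the non-target libraries and 0.408 and 0.452 FPKM in DDX17_KO. The genes carry from 5 annotated transcripts in LPXN to 57 in PTK2, and how the authors combined transcripts into a gene value is not given in the sources used here, so levels of different genes are comparable only roughly.

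The side on which replicate 2 fell went with transcript GC content in 6 of the 10 genes. The same share over all tested genes was not counted, so this count has no background beside it. PTK2, PARVA and GIT2, with 45.3%, 45.9% and 47.2% G and C, were lower in replicate 2 than in the mean of replicates 1 and 3 in both groups, at 0.492 to 0.857 times that mean. PXN-AS1, GIT1 and BCAR1, with 54.6%, 62.1% and 65.3%, were higher in both groups, at 1.22 to 1.78 times. LPXN, at 47.6% G and C, was also higher, at 1.39 and 1.49 times, from values of at most 0.522 FPKM. The remaining genes split between the groups. PXN had 0.867 times in controls and 1.41 times in DDX17_KO, PTK2B 1.24 and 0.405 times, and TGFB1I1 1.01 and 0.679 times. The median over tested genes was 48.4% G and C, and 6 of the 10 genes lay above it. The part of GC content in the group differences was not tested. The correction given above was fitted to each library's deviation from the mean of all 6 libraries. It therefore also takes out any knockout difference that goes with GC content or length.

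**Figure D5:**
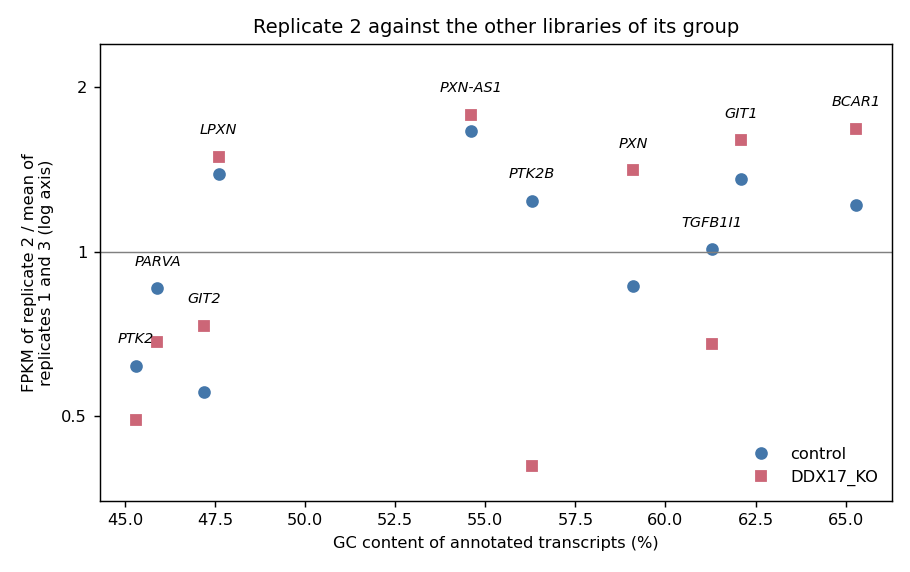
FPKM of replicate 2 divided by the mean of replicates 1 and 3 of its group (log axis) against the GC content of the annotated transcripts in percent, for the 10 genes; circles are controls and squares DDX17_KO. PTK2, PARVA and GIT2 at the left lie below 1 in both groups, and PXN-AS1, GIT1 and BCAR1 lie above 1 in both.

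Genes with the pattern most like PXN over the 6 libraries, by Pearson's r of log2(FPKM + 1) among 5570 genes averaging 5 FPKM or more, were MT-CO1 (r = 0.9897), TM4SF1 (r = 0.9858) and NCLN (r = 0.9856). TM4SF1, a membrane protein gene, stood at 119, 104 and 117 FPKM in the non-target libraries and 57.5, 118 and 75.5 FPKM in DDX17_KO, with replicate 2 back at the control level as in PXN. For PXN-AS1 they were DIAPH1 (r = 0.9899), VPS72 (r = 0.9816) and CASC3 (r = 0.9795). DIAPH1, a formin gene, stood at 22.1, 27.4 and 22.2 FPKM in the non-target libraries and 21, 31.5 and 24.3 FPKM in DDX17_KO, highest in replicate 2 of each group. An r above 0.9 was reached by 62 genes for PXN and 81 for PXN-AS1. With 6 libraries that share the deviation of replicate 2, these are descriptions.

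Among 44 other genes that bind paxillin or act with it, 37 were tested and 0 passed. Of the 37, 27 lay below 0 and 10 above it, where 52.5% of all genes tested lay below 0. The 37 had a median of -0.25, against -0.03 over all genes. By limma 4 lower and 3 higher genes had an unadjusted p under 0.05, against 13.5% of all genes. By voom on approximate fragments 7 genes had one, against 14.2% of all genes, and 0 passed. In 10 genes the groups did not overlap with DDX17_KO lower and in 1 with DDX17_KO higher, against 12.6% and 8.09% of all genes. After the correction for GC content and length the median was -0.10, against 0.01 over all genes. With it 24 of 37 were below 0, against 49.1% of all genes. The median was -0.19 with median-of-ratios scaling and -0.11 without DDX17_KO replicate 2, against 0.03 and -0.05 over all genes. In the setting with a mean of at least 2 FPKM, 25 of 34 were below 0, against 58.8% of all genes there.

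Kinases and phosphatases had 7 of 10 tested members below 0, with a median of -0.19, where 52.5% of all genes tested were below 0. PAK2, an effector kinase of RAC and CDC42, had 40 ± 5.73 FPKM in the non-target libraries and 33.7 ± 9.83 FPKM in DDX17_KO, and the phosphatase gene PTPN11 had 26.1 ± 9.92 and 41.9 ± 18 FPKM (SD, n = 3 each). SRC, the best-known kinase of the complex, was below the test's minimum, at means of 0.0391 and 0.057 FPKM. Adaptors and scaffolds had 13 of 15 below 0, with a median of -0.30. Their most abundant members were VCL, the vinculin gene, with 35.5 ± 4.43 FPKM in the non-target libraries and 33.4 ± 10.5 FPKM in DDX17_KO, and CRKL, an SH2 and SH3 adaptor gene, with 23.1 ± 1.69 and 18.7 ± 4.93 FPKM. GTPases and their regulators had 7 of 12 below 0, with a median of -0.17. RHOA had 135 ± 10.7 FPKM in the non-target libraries and 108 ± 16 FPKM in DDX17_KO, without overlap, and RAC1 had 53.6 ± 3.55 and 47.5 ± 5.99 FPKM.

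Without DDX17_KO replicate 2, 3 of the 37 passed, 2 higher and 1 lower, where 3.66% of all genes were called (1.95% higher and 1.72% lower). These 3 were named after their values were seen. PARVB, the paralogue of PARVA, was lower by limma (log2 fold change -1.22, adjusted p = 0.0445). It stood at 7.69, 10.7 and 8.27 FPKM in the non-target libraries and 2.56, 7.15 and 3.97 FPKM in DDX17_KO, where every value including the library left out lay below every control. LPP, which encodes a zyxin relative, was higher with an adjusted p of 0.0303 by limma. LPP stood at 1.81, 1.09 and 1.21 FPKM in the non-target libraries and 4.93, 2.27 and 4.86 FPKM in DDX17_KO, again without overlap. YES1, a SRC family kinase gene, was higher with a limma adjusted p of 0.0461, at 7.73, 3.42 and 7.32 FPKM in the non-target libraries and 21.7, 7.45 and 20.8 FPKM in DDX17_KO, where replicate 2 lay inside the control range. With all 6 libraries the limma adjusted p was 0.357 for PARVB, 0.298 for LPP and 0.363 for YES1.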

How the data were processed

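Gene-level FPKM, as computed and deposited by the authors, covers 3 control and 3 DDX17_KO libraries, grouped and numbered by their titles. HISAT2, StringTie, CASAVA 1.8, edgeR and the build hg38 appear, without roles, in the submitters' processing notes. Which annotation release, strand setting or filters they used is not given in the sources used here. Depth was estimated from genes with 1 transcript in GENCODE release 29, where 99.4% to 99.7% of low values, up to about 20 fragments, lay within 0.05 of whole fragments. For genes with 2 transcripts, 63.2% to 64% did so with the summed transcript length and 30.3% to 35.9% with the mean length, so fragments of the genes described could not be recovered. GENCODE gave strand, transcript lengths and GC content, the last for 99.64% of tested genes. The printed start and end of each gene are those of the deposited table.

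limma 3.58.1 in R 4.3.3, with an intensity trend, was run on log2(FPKM + 1) for the 15620 genes averaging 0.5 FPKM or more. It was first tried on simulated libraries drawn independently. These lack the deviation shared by the libraries numbered 2, so the trial could not show its effect. Changes of low genes come out too small on the log2(FPKM + 1) scale. Ratios within libraries were compared by two-sided exact permutation tests. Alternatives were a replicate block, a pseudocount of 0.1, other scalings and filters, no trend, splines with 4 degrees of freedom for GC content and length, voom on approximate fragments, and libraries left out; ratios without both libraries numbered 2 were added after seeing the data. Deviations of same-numbered libraries correlated at 0.3, 0.546 and 0.214 for numbers 1, 2 and 3, so the numbers were treated as a pairing, a pairing read from the data, since no label states one; control 1 with DDX17_KO 3 also gave 0.329. All 10 genes are named; other genes were named by adjacency to PXN (3 on each side), by likeness of pattern (3 each for PXN and PXN-AS1) and, per list of paxillin complex genes, as the 2 most abundant where none passed. The members and lists were chosen with earlier results of these data known. Python 3.11.15 and pandas 2.3.3 were used.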

Additional observations from a re-analysis of the deposited data

How the results depend on the processing

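In 17 other settings 0 of the 8 tested genes passed the threshold; for GIT2, PTK2B and BCAR1, which lie under 2 FPKM on average, the setting with a mean of at least 2 FPKM gave no value. The replicate block changed no call among them; the paired ratio of PXN-AS1 to PXN kept its difference of 0.48, with an exact sign-flip permutation p of 0.25, the smallest possible. PXN, PTK2B, GIT1 and GIT2 kept their direction in every setting run. PXN ran from -0.54 to -0.05 in log2 fold change and from -0.48 to -0.21 with single libraries left out, and PXN-AS1 from -0.11 to 0.25 with single libraries left out. Its direction reversed at -0.01 without control replicate 1 and -0.11 without DDX17_KO replicate 2. PTK2 ran from -0.11 to 0.32 and PARVA from -0.12 to 0.21 with single libraries left out. PTK2 reversed without control replicate 2 (-0.11), DDX17_KO replicate 1 (-0.09) and DDX17_KO replicate 3 (-0.04). PARVA reversed without control replicate 2 (-0.01), without DDX17_KO replicate 3 (-0.12) and with the GC content and length correction (-0.06), with the replicate block (-0.06) or without. BCAR1 reversed with that correction, at 0.02 with and without the block. The cause was not tested. The ratio of PXN-AS1 to PXN ran from 0.31 to 0.79 with single libraries left out. Of the other paxillin complex genes, 3 passed without DDX17_KO replicate 2 and 5 without both libraries numbered 2, against 0 with all libraries, while the share of all genes called went from 0.0384% to 3.66% and 8.81%; among other libraries left out singly the count was 0. DDX17 itself passed in those same settings, at -1.04 and -1.08, and not in the others. Depth may limit TGFB1I1, LPXN, PTK2B and PXN-AS1 in the shallowest library, but their fragment numbers are not known.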
